A study of Bos taurus with 12 samples.

Results

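Cloned bovine conceptuses were compared with inseminated ones on day 16 of gestation, across every gene that the arrays could measure in them. The comparison asked how expression after somatic cell nuclear transfer differs from that after artificial insemination. The SCNT group consisted of 3 arrays of conceptuses from blastocysts made by somatic cell nuclear transfer: a fibroblast nucleus takes the place of the oocyte's own. The AI group consisted of 3 arrays of conceptuses that began as in vivo embryos of inseminated cows. A further group of 3 arrays, from embryos produced in vitro (IVP), shared the estimate of spread and showed which differences also set cloned apart from other laboratory-made conceptuses. In every group, blastocysts had been transferred to synchronized recipient cows on day 7, conceptuses of comparable length were recovered on day 16, and total RNA was taken from 10 mg of tissue. Breed, sex and age of the animals, the donor cell line and the culture conditions are not stated in the labels used here. Values are deposited log2 signals of Affymetrix bovine genome arrays, on which a gene is read by 1 or more probe sets. All probe sets above log2 4 on at least 3 of the 6 SCNT and AI arrays were included, which took in 6703 of the 24016 on the array, or 27.9%. Of these, 4897 carried 1 gene symbol, 23 several and 1783 none, and the symbols stood for 4249 of 9155 genes measured.

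At this stage the ruminant blastocyst has grown into a long filament, made mostly of trophoblast lined by hypoblast, before it attaches to the uterus. The trophoblast takes up nutrients from uterine secretions, signals pregnancy to the mother and makes new membrane and protein at a high rate. After nuclear transfer the genome of a differentiated cell has to be reset by the oocyte, and losses of cloned bovine pregnancies are common around and after attachment.

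Trophoblast markers were read on every array, 11 of 15 above log2 4 on all AI and on all SCNT arrays, with a mean over the 15 of 9.09 to 9.24 in AI and 9.31 to 9.33 in SCNT. Of 15 hypoblast and yolk sac markers, 6 lay above log2 4 on all 6 arrays, and the mean over the list was 5.17 to 5.63 in AI and 4.55 to 4.76 in SCNT. Of 5 epiblast markers 3 lay below log2 4 on all 6 arrays, and the list mean was 2.79 to 2.87 in AI and 3.45 to 3.47 in SCNT. The other two, CRIPTO and ZIC2, rose, ZIC2 not being called without AI 3 or SCNT 2. All 10 uterine epithelial, all 9 blood vessel and all 16 leukocyte markers lay below log2 4 on all 6 arrays, as did 9 of 10 red blood cell and 11 of 13 fibroblast markers. The remaining red blood cell marker, ALAS2, the first enzyme of heme synthesis in those cells, read 7.86, 6.45 and 6.10 in AI and 2.72, 2.46 and 2.55 in SCNT, a fall. XIST, the RNA made by the silenced X chromosome, read 4.79, 4.88 and 2.57 on the AI arrays and 2.42 on each SCNT array, so that embryo sex may differ between the groups, and its part in the results was not tested. Arrays of one group correlated at 0.972 to 0.985 in AI and 0.977 to 0.987 in SCNT across the included probe sets. AI with SCNT arrays correlated at 0.917 to 0.930, AI with IVP at 0.923 to 0.957 and SCNT with IVP at 0.966 to 0.980. On AI 2 the hybridization spikes averaged 7.57, against 6.57 to 6.79 on the other 5 arrays, and the actin 3 prime probe set exceeded the 5 prime one by 0.77, against 0.18 to 0.42. Their part in the results was not tested beyond leaving that array out. Whether a group's arrays came from separate conceptuses or from pools is not stated. The p-values therefore reflect array-to-array spread, which may be technical. Each sample was a whole piece of tissue, and fewer cells of a type cannot be told apart from less RNA per cell.

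Most of what separated the groups was small in size. Of the 6703 probe sets, 1879 (28.0%) differed at an adjusted p under 0.05 (limma, Benjamini-Hochberg over all 6703). In SCNT 1089 (16.2%) were higher and 790 (11.8%) were lower, and these are called rises and falls below. Only 170 rises and 306 falls reached 2-fold, or 1 log2 unit, which left 919 rises and 484 falls below it. The 3 SCNT arrays lay entirely above or below the 3 AI arrays for 2967 probe sets (44.3%). The median difference over all probe sets was 0.08, with quartiles of -0.21 and 0.35. With so few arrays precision is limited, and differences had a standard error of 0.16 at the median. Without SCNT 2 the calls were 1195, with 630 rises of any size, 476 small rises and 279 small falls. Members that passed the level filter on the SCNT arrays alone numbered 133, of which 104 were rises, and those that passed on the AI arrays alone 153, of which 145 were falls. Such members had to differ. Named genes of this kind include ALAS2, TNFRSF1A, SCNN1G and KDM6A (AI arrays alone) and CRIPTO, CTNS, CA4 and MARK1 (SCNT arrays alone). The same holds for any named gene whose arrays all lie above log2 4 in 1 group and below it in the other. Among the 5633 above log2 4 on all 6 arrays, 867 rose and 550 fell.

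**Figure D1:**
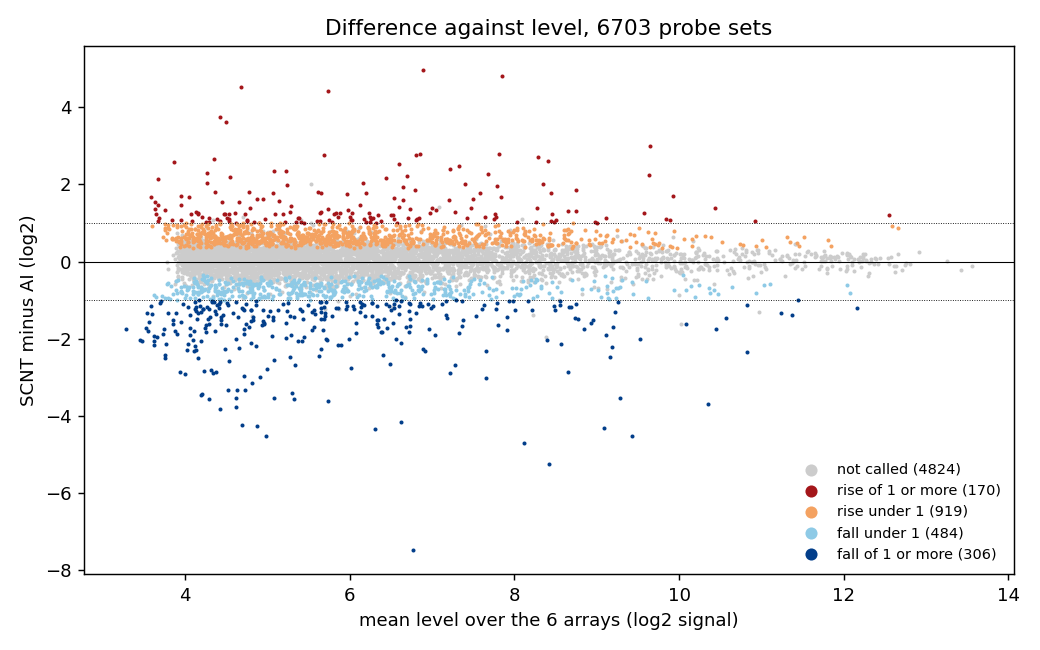
Difference between SCNT and AI means (log2, vertical axis) against the mean level over the 6 arrays (log2 signal, horizontal axis), 1 point per probe set. Orange and light blue mark the 919 rises and 484 falls under 1 log2 unit, red and dark blue the 170 rises and 306 falls of 1 or more, and grey the 4824 probe sets that did not pass the test. Small rises lie at every level, while the largest change is a fall.

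The small rises varied somewhat less among the arrays of a group than all probe sets did, and the test favours low spread at that size. Their median difference was 0.61, with quartiles of 0.51 and 0.75 and a smallest value of 0.35. Their median SD among arrays was 0.16 in AI and 0.14 in SCNT, against 0.19 and 0.16 over all probe sets. Over small falls it was 0.19 and 0.17. SCNT and AI arrays were fully separated for 906 of the 919 small rises (98.6%) and 468 of the 484 small falls (96.7%). Over all 6703 probe sets the share was 44.3%, but with 3 arrays a group a call mostly goes with separation. The high shares therefore follow largely from the calls. Small rises were spread evenly over the range of expression. In 5 equal classes of probe sets by mean level, from dim to bright, 12.5%, 13.4%, 14.7%, 14% and 14% were small rises. Small falls made up 7.31%, 6.34%, 7.68%, 8.51% and 6.26% of the same classes. A gene symbol was attached to 740 of the small rises (80.5%), for 692 genes, but to 318 of the 484 small falls (65.7%), for 289 genes. Calls were checked with each AI or SCNT array omitted, under both other scalings and in a fit of the 6 arrays alone. Through all of these, 386 small rises (42.0%) and 221 small falls (45.7%) kept their call. Of the 170 large rises 152 did (89.4%), and of the 306 large falls 275 did (89.9%). Of the 919 small rises, 71 had passed the filter on SCNT arrays alone. Against IVP, 39 of all 6703 probe sets (0.582%) differed, and 7 of the 919 small rises did (0.762%), all higher in SCNT. The count against IVP was 8 without SCNT 2, 20 to 23 without AI 1, SCNT 1 or SCNT 3, and 65 without AI 3. The IVP mean lay between the AI and SCNT means for 775 of the 919 small rises (84.3%). It did so for 149 of the 170 large rises (87.6%), 297 of the 484 small falls (61.4%) and 224 of the 306 large falls (73.2%). Over all 6703 probe sets it did so for 3253 (48.5%). Called probe sets were chosen for a gap between AI and SCNT means, and another mean falls more readily within a wider gap. Their shares therefore cannot be set against that over all probe sets.

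Size and call were closely tied. Of positive differences between 0.25 and 0.5 log2 units 198 of 1206 passed the test (16.4%), of those between 0.5 and 0.75 495 of 620 (79.8%), and of those between 0.75 and 1 226 of 242 (93.4%). Negative differences of the same sizes passed in 65 of 658 (9.88%), 232 of 338 (68.6%) and 187 of 208 (89.9%). Small positive differences were thus more numerous than small negative ones before any test, and 58.1% of all probe sets had a difference above 0.

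The 20 small rises with the smallest p, among those with non-overlapping arrays whose calls held in every omission and scaling, were of varied function. Genes named here and below were chosen for non-overlapping arrays unless stated, so that their separation was fixed by the choice. GSPT1, the release factor that ends translation, read 7.57, 7.57 and 7.57 on the AI arrays and 8.39, 8.22 and 8.32 on the SCNT arrays. The AI values were almost identical and every SCNT array was above them, a rise of 1.66-fold (95% interval 1.40 to 1.98, limma adjusted p = 0.00118). EIF2B1, a subunit of the exchange factor that recharges initiation factor 2, read 4.55, 4.68 and 4.89 in AI and 5.83, 5.55 and 5.62 in SCNT, 1.95-fold higher (limma adjusted p = 0.000745). MRPS7, a protein of the small mitochondrial ribosome subunit, read 5.63, 5.63 and 5.64 in AI and 6.53, 6.35 and 6.53 in SCNT, with no overlap and a 1.79-fold rise (limma adjusted p = 0.000929). WARS1, the tryptophan-tRNA ligase, rose 1.81-fold, and AIMP2, a scaffold that holds several such ligases together, rose 1.72-fold.

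Metabolic enzymes among the same 20 small rises with the smallest p included ATIC, which catalyses the last steps of purine synthesis. It read 7.65, 7.69 and 7.47 in AI and 8.56, 8.45 and 8.38 in SCNT, a 1.82-fold rise in which all SCNT arrays were the higher ones. APIP, of the methionine salvage pathway, rose 1.99-fold and CPOX, of heme synthesis, 1.68-fold. BCS1L, an assembly factor of respiratory complex III, rose 1.76-fold, and TIMM9, a chaperone for proteins crossing into mitochondria, 1.88-fold. CTNS, the lysosomal cystine exporter, was at 3.60, 3.46 and 3.20 on the AI arrays and 4.34, 4.38 and 4.40 on the SCNT arrays. Since its AI mean lay below log2 4, AI arrays below 4 were set to 4 and its rise is given as at least 1.30-fold, a bound that also applies wherever "at least" is written below.

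Structural and signalling genes made up the rest. CDH2, N-cadherin, read 4.82, 4.68 and 4.52 in AI and 5.43, 5.77 and 5.69 in SCNT, 1.94-fold higher. DAB2, an endocytic adaptor found in trophoblast and endoderm, read 8.32, 8.21 and 8.12 in AI and 9.17, 9.17 and 9.31 in SCNT, 2.0-fold higher, and CALD1, the actin-binding caldesmon, read 4.48, 4.72 and 4.44 in AI and 5.49, 5.48 and 5.67 in SCNT, 1.99-fold higher. For each of these genes the lowest SCNT array was above the highest AI array, as the choice required. The tyrosine phosphatase gene PTPN13 rose 1.71-fold, the sialyltransferase gene ST3GAL4 1.99-fold, and MAD2L2, whose protein acts in translesion synthesis and mitosis, 1.88-fold. NAT10 (1.71-fold) acetylates ribosomal RNA, and CCDC59 (1.98-fold) and WDR89 (1.98-fold) completed the set of 20.

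Genes were then grouped into 56 families by function, and each gene was taken at its brightest included probe set. Over all 4249 genes, 754 rose (17.7%) and 463 fell (10.9%), with a median difference of 0.10 and 2563 differences above 0. These shares are the background for the counts that follow. The families held 1731 of the genes, of which 17.6% rose and 11.6% fell, and the 2518 genes outside them were little different, with 17.9% and 10.4%.

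**Figure D2:**
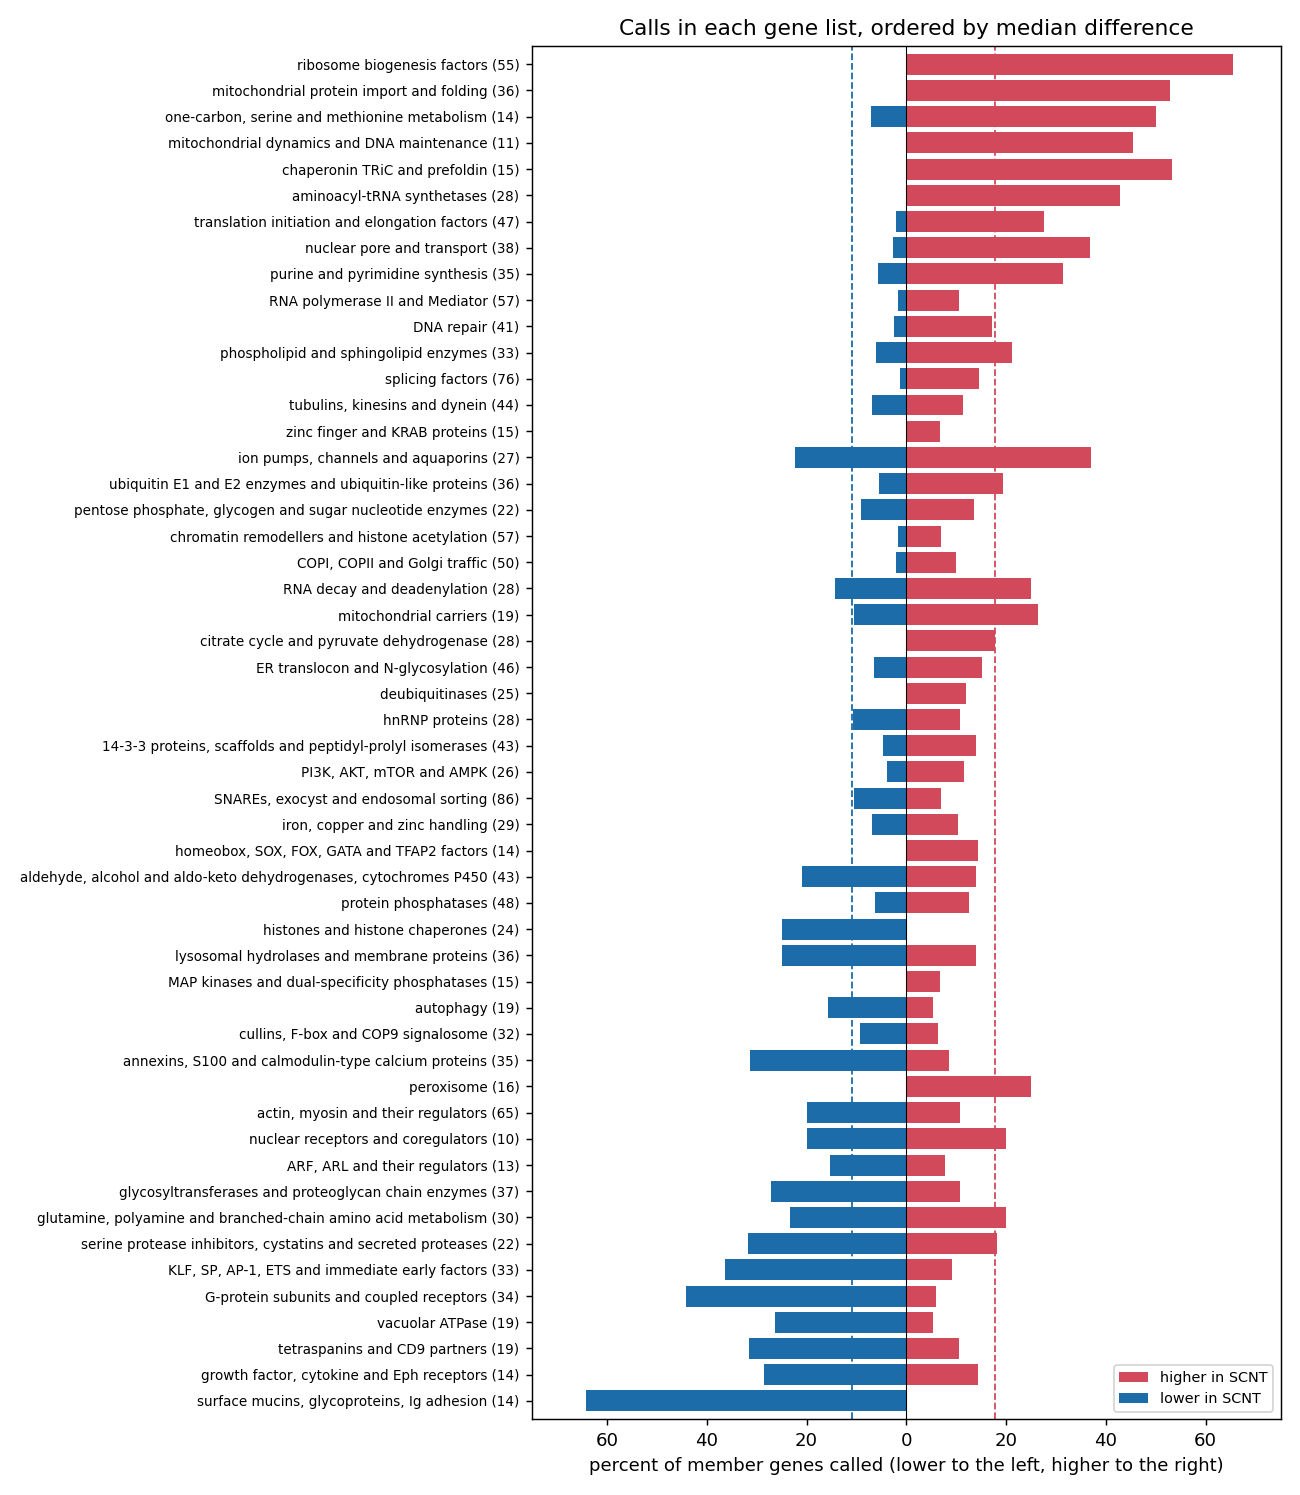
Percent of each family's genes that were called higher (red, to the right) or lower (blue, to the left) in SCNT than in AI, for the reported families with at least 10 included genes, whose number stands in brackets. Families are ordered by median difference, and dashed lines mark the shares over all 4249 genes, 17.7% higher and 10.9% lower. Ribosome biogenesis, mitochondrial import and chaperonin genes have the longest red bars, and surface glycoproteins and G-protein genes the longest blue ones.

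Ribosome biogenesis factors, which cut, modify and assemble ribosomal RNA in the nucleolus, rose in most cases. Of 61 measured genes 55 were included, 36 of them rose and 0 fell (limma; 48 and 0 at an unadjusted p under 0.05), all 55 differences were above 0, and the median was 0.59. SCNT and AI arrays were fully separated for 46 of the 55, against 44.3% of all 6703 probe sets. The 46 include all 36 rises, and called probe sets of any kind were nearly all separated. The count of rises was 22 without SCNT 2 and 23 without AI 2, and 2 of the 36 had passed the filter on SCNT arrays alone. NOP56, a core protein of the particles that guide ribosomal RNA methylation, read 7.96, 8.02 and 7.92 in AI and 9.07, 8.95 and 9.10 in SCNT. The groups were nearly 1 log2 unit apart at their closest arrays, and the rise was 2.11-fold (95% interval 1.78 to 2.50, limma adjusted p = 0.000117).

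GAR1 and NHP2, which belong to the particles that guide pseudouridine formation, differed clearly. GAR1 read 6.19, 5.47 and 6.02 in AI and 7.29, 7.59 and 7.03 in SCNT, and NHP2 read 7.85, 7.84 and 7.54 in AI and 8.84, 8.75 and 8.73 in SCNT. Both were above every AI array on every SCNT array, 2.65-fold and 2.04-fold higher. DKC1, the enzyme of the same particles, named after its values were seen, read 8.21, 7.21 and 7.54 in AI and 7.46, 7.96 and 7.65 in SCNT, so that its groups overlapped and its difference was 0.04. RCL1, needed for the cut that frees the small subunit RNA, read 4.43, 4.46 and 4.36 in AI and 5.72, 5.48 and 5.37 in SCNT, 2.15-fold higher. Factors of the large subunit were represented by PES1 (at least 1.54-fold), BRIX1 (1.43-fold) and the nucleolar GTPase genes GNL2 (2.01-fold) and GNL3 (1.80-fold). NCL, the abundant nucleolar protein nucleolin, rose 1.59-fold from an already high level, at 10.04, 9.60 and 9.97 in AI and 10.57, 10.56 and 10.49 in SCNT.

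**Figure D3:**
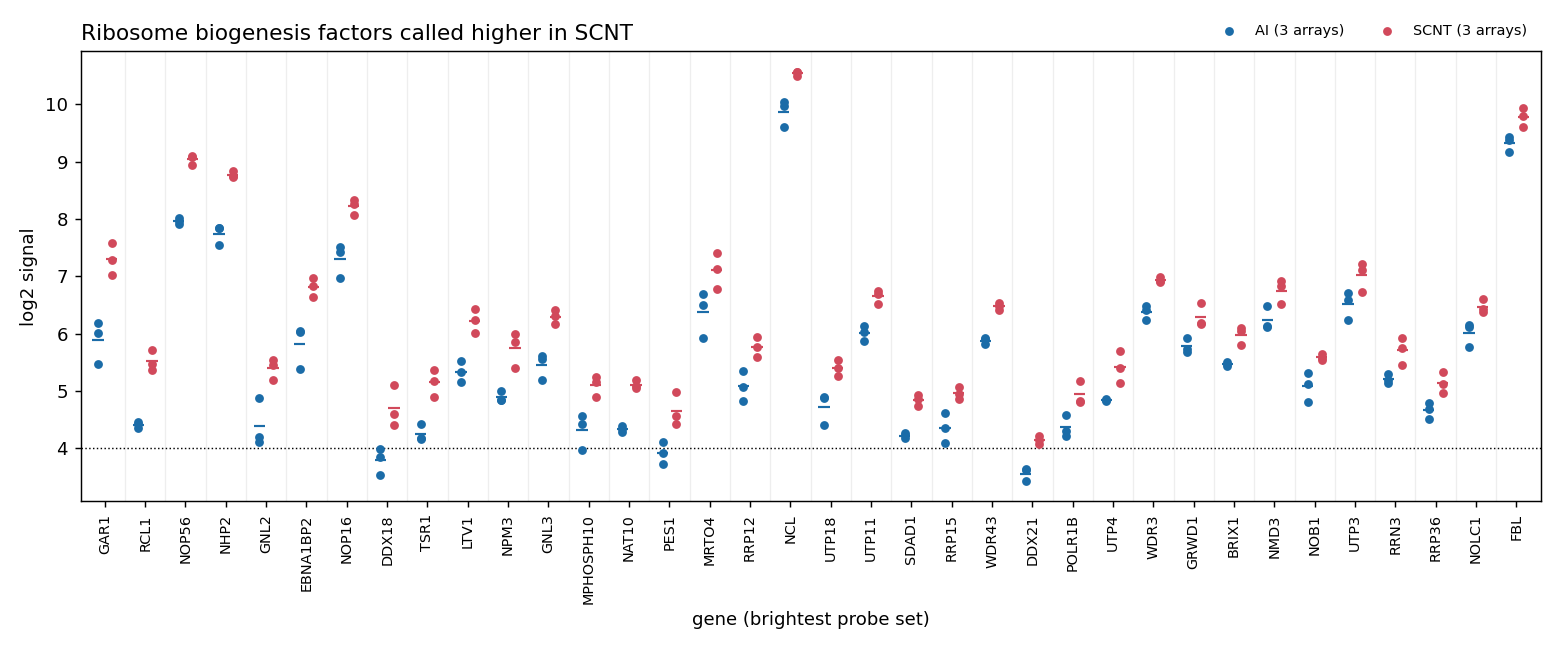
Log2 signal (vertical axis) of the 36 ribosome biogenesis genes that rose, 1 column per gene, with the 3 AI arrays in blue, the 3 SCNT arrays in red and a dash at each group mean. The dotted line marks log2 4, and genes are ordered by the size of the rise, from GAR1 at 1.41 to FBL at 0.45, whose call ended without AI 1, AI 2, SCNT 1 or SCNT 2. In every column the red points lie above the blue ones.

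The machinery that loads and decodes messenger RNA moved the same way, with smaller shares. Of 28 aminoacyl-tRNA synthetase genes, which attach amino acids to their tRNAs, 12 rose and 0 fell (limma; 16 and 0 at an unadjusted p under 0.05), with 27 differences above 0 and a median of 0.39. RARS1, the arginine enzyme, read 6.09, 6.15 and 6.01 in AI and 6.88, 6.88 and 7.33 in SCNT, 1.93-fold higher, and the glutamate and proline enzyme EPRS1 read 7.70, 7.18 and 7.48 in AI and 8.21, 8.08 and 8.33 in SCNT, 1.68-fold higher. Of 47 initiation, elongation and release factors 13 rose and 1 fell, with a median of 0.35, and the rises numbered 8 without SCNT 1. The 1 that fell was PABPC1, the protein that coats poly(A) tails, at 12.41, 12.29 and 12.34 in AI and 11.84, 11.69 and 11.71 in SCNT, 1.52-fold lower. EIF4E2, a cap-binding protein that competes with the main initiation factor, rose 1.74-fold.

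Protein folding in the cytosol showed a like pattern. The chaperonin TRiC folds actin and tubulin, which prefoldin delivers to it, and 8 of 15 genes of the pair and their cofactors rose and 0 fell (limma; 11 and 0 at an unadjusted p under 0.05), with a median of 0.42. The count was 4 without AI 2 or without SCNT 1, and 5 without SCNT 3. CCT6A, one of the ring's subunits, read 8.76, 8.65 and 8.92 in AI and 9.39, 9.47 and 9.50 in SCNT, 1.60-fold higher, and the subunits CCT2 and CCT5 rose 1.78-fold and 1.73-fold. TBCE, a cofactor that acts on tubulin after the chaperonin, read 4.15, 4.36 and 3.78 in AI and 5.51, 5.43 and 5.50 in SCNT, a 2.61-fold rise, the largest of the 8.

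Genes of mitochondrial protein import also rose in large part. Of 36 genes 19 rose and 0 fell (limma; 25 and 1 at an unadjusted p under 0.05), 35 differences were above 0, and the median was 0.54. TOMM7, of the outer membrane pore, read 7.95, 8.18 and 7.86 in AI and 9.43, 9.34 and 9.17 in SCNT, 2.49-fold higher (95% interval 1.97 to 3.15, limma adjusted p = 0.000240). CHCHD4, which oxidizes proteins entering the space between the membranes, read 4.95, 4.87 and 4.68 in AI and 6.16, 5.90 and 5.53 in SCNT, 2.04-fold higher, and TIMM50, the receptor of the inner membrane pore, read 5.87, 5.58 and 5.99 in AI and 6.76, 6.75 and 6.46 in SCNT, 1.80-fold higher. Groups did not overlap for any of the 3. Of 11 genes for mitochondrial fusion, fission and DNA upkeep 5 rose and 0 fell (limma; 6 and 0 at an unadjusted p under 0.05), a count of 3 without any single array other than AI 3, with MTERF3 1.91-fold and SSBP1, which binds single-stranded mitochondrial DNA, 1.63-fold higher.

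Carriers and citrate cycle genes did not follow as a whole. Of 28 genes of the citrate cycle and pyruvate entry 5 rose and 0 fell (limma; 8 and 2 at an unadjusted p under 0.05), close to the background, and the count was 2 without AI 1 or SCNT 2 and 3 without AI 3 or SCNT 3. IDH3A, a subunit of isocitrate dehydrogenase, stood apart at 6.43, 6.48 and 6.30 in AI and 7.98, 8.08 and 7.97 in SCNT, 3.05-fold higher (95% interval 2.53 to 3.68, limma adjusted p = 2.14e-05), and MPC1, of the pyruvate carrier, rose 2.18-fold. Of 19 mitochondrial carriers 5 rose and 2 fell. The falls were large: SLC25A12, the aspartate and glutamate carrier, read 6.56, 6.62 and 6.86 in AI and 4.66, 3.80 and 3.50 in SCNT, at least 5.49-fold lower, and SLC25A20, the acylcarnitine carrier, read 7.35, 6.74 and 7.83 in AI and 5.23, 5.75 and 5.81 in SCNT, 3.27-fold lower. The 5 carrier rises were small and numbered 1 to 3 with any 1 array left out.

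Nucleotide and one-carbon metabolism supplied further small rises. Of 35 genes of purine and pyrimidine synthesis 11 rose and 2 fell, with a median of 0.30, but 3 rose without SCNT 2 and 7 without AI 1. DHODH, of pyrimidine synthesis, read 4.69, 4.09 and 4.73 in AI and 5.24, 5.33 and 5.40 in SCNT, 1.77-fold higher, and ADSL, of purine synthesis, rose 1.50-fold. The surface nucleotidase gene NT5E went the other way, at 6.78, 7.51 and 4.76 in AI and 3.34, 3.64 and 4.46 in SCNT. Its AI arrays were widely spread but stayed above the SCNT ones, and it was at least 4.59-fold lower, the other fall being NME3, a nucleoside diphosphate kinase (1.40-fold), whose call ended in every omission. Of 14 one-carbon genes 7 rose and 1 fell, the count of rises being 3 under a filter at log2 5. Of the 14, 3 had passed the filter on the SCNT arrays alone, and 2 of these were among the 7 rises.

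The 4 largest one-carbon rises were those of folate enzymes: MTHFD2 (at least 1.62-fold), SHMT2 (at least 1.82-fold) and MTHFD1L (at least 1.41-fold) in mitochondria and MTHFD1 (1.76-fold) in the cytosol. MTHFD2 read 3.40, 3.71 and 3.26 in AI and 5.12, 4.61 and 4.36 in SCNT, and MTHFD1 6.04, 5.91 and 6.54 in AI and 7.16, 6.86 and 6.91 in SCNT. The AI arrays of MTHFD2 all lay below log2 4 and those of MTHFD1 well above it, and neither gene's groups overlapped. The 1 fall was PHGDH, which starts serine synthesis, at 5.84, 5.86 and 7.74 in AI and 5.15, 4.65 and 5.43 in SCNT. That call ended with AI 3 or any SCNT array left out (limma adjusted p up to 0.155).

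Nuclear transport and RNA decay genes changed in part. Of 38 genes of the nuclear pore and its carriers 14 rose and 1 fell, with a median of 0.33, but only 4 rose without SCNT 2, and 6 to 8 without AI 1, AI 3, SCNT 1 or SCNT 3. RANBP1, a regulator of the transport GTPase RAN, read 8.42, 7.74 and 8.43 in AI and 9.10, 8.96 and 8.97 in SCNT, 1.76-fold higher. IPO9, an importin, was the 1 that fell (1.31-fold), a call that ended without any single array but AI 2. NUP37 and the importin gene KPNA3 rose 1.72-fold and 1.47-fold. Of 28 RNA decay genes 7 rose and 4 fell, with 4 rises without SCNT 2. Of the 7 rises 6 were subunits of the exosome, which trims RNA from its 3 prime end, from EXOSC6 (1.84-fold, not called without SCNT 2) and EXOSC4 (1.70-fold) down to EXOSC9 (1.40-fold), and the other was DICER1 (1.49-fold), not called without AI 2, SCNT 2 or SCNT 3.

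The 4 falls in RNA decay were those of genes tied to removal of poly(A) tails. BTG1, which activates deadenylation, read 9.44, 9.38 and 9.57 in AI and 8.22, 7.83 and 7.98 in SCNT, 2.74-fold lower (95% interval 2.23 to 3.36, limma adjusted p = 5.87e-05). CNOT6, a deadenylase, was at least 1.55-fold lower, and ZFP36L1 and ZFP36L2, which bring the deadenylase to AU-rich messages, were 1.94-fold and 1.45-fold lower. Every SCNT array of these 4 genes was below every AI array. Splicing factors were below the background for called rises, with 11 of 76 higher and 1 lower. Without AI 2 or any 1 SCNT array 5 to 7 were higher. Yet 60 of the 76 differences were above 0, with a median of 0.19 against 0.10 over all genes (limma; 27 and 1 at an unadjusted p under 0.05). Of 57 RNA polymerase II and Mediator genes 6 rose and 1 fell, with 1 to 3 rises without any array but AI 2. Here 43 of the 57 differences were above 0, with a median of 0.23 (limma; 8 and 2 at an unadjusted p under 0.05). Of 28 hnRNP genes 3 rose and 3 fell, and 0 did either without SCNT 2 (limma; 5 and 4 at an unadjusted p under 0.05 with all arrays).

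DNA repair genes were near the background in number, with 7 of 41 higher and 1 lower, and 4 higher without AI 1 or without SCNT 1. MSH6, of mismatch repair, read 8.56, 8.37 and 8.69 in AI and 9.29, 9.84 and 9.92 in SCNT, 2.21-fold higher, RAD23B, of excision repair, rose 2.03-fold and NBN, of double-strand break repair, 1.76-fold. H2AX, the histone variant that marks broken DNA, was the 1 that fell, 1.73-fold. Of 24 histone and histone chaperone genes 0 rose and 6 fell (limma; 2 and 7 at an unadjusted p under 0.05, and the falls numbered 3 without AI 3, SCNT 2 or SCNT 3). H3-3A, the replacement histone H3.3, read 10.15, 10.13 and 10.01 in AI and 9.19, 9.21 and 9.05 in SCNT, 1.93-fold lower, and H2AJ fell 2.11-fold. KDM6A, an X-linked histone demethylase, read 5.20, 4.70 and 4.70 in AI and 3.85, 3.79 and 3.85 in SCNT, at least 1.82-fold lower. On AI 3 XIST read 2.57 and KDM6A 4.70, and a link of KDM6A to embryo sex was not tested.

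Families with the larger shares of falls belonged to the cell surface and to signalling. Of 14 included surface mucins, glycoproteins and adhesion molecules of the immunoglobulin class, from 46 measured, 9 fell and 0 rose (limma; 10 and 0 at an unadjusted p under 0.05), with a median of -0.67. Of the 9, 4 had passed the filter on the AI arrays alone. CD48, a ligand of lymphocyte receptors, read 6.25, 4.86 and 6.65 in AI and 2.44, 2.44 and 2.48 in SCNT, and CADM1, a cell adhesion molecule, read 6.96, 6.66 and 7.37 in AI and 3.81, 3.32 and 3.65 in SCNT. Both were well above log2 4 on each AI array and below it on each SCNT array, at least 3.78-fold and at least 7.98-fold lower. CD55, which shields cells from complement, read 5.67, 6.34 and 7.21 in AI and 3.74, 3.51 and 3.0 in SCNT, at least 5.29-fold lower, and BCAM, a laminin receptor, read 7.78, 7.33 and 7.93 in AI and 5.52, 5.79 and 5.40 in SCNT, 4.31-fold lower.

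Genes of G-protein subunits, their receptors and their targets fell too. Of 34 genes 15 fell and 2 rose, with a median of -0.31, and 4 of the 15 had passed the filter on AI arrays alone. GNB4, a beta subunit, read 6.44, 6.29 and 5.85 in AI and 2.80, 2.85 and 2.92 in SCNT, at least 4.57-fold lower. It is 1 of those 4, with every AI array above log2 5 and every SCNT array below log2 4. Protease-activated receptors, which are switched on by thrombin or trypsin-like enzymes, fell together: F2RL2 read 8.04, 7.87 and 8.14 in AI and 5.56, 5.76 and 5.97 in SCNT, 4.76-fold lower (95% interval 3.67 to 6.19). F2R and F2RL1, named after their values were seen, fell at least 1.79-fold and 1.95-fold. ADGRE5, an adhesion receptor that binds CD55, read 5.58, 6.03 and 6.94 in AI and 3.53, 3.03 and 3.14 in SCNT, at least 4.54-fold lower, and CALCRL, the receptor of adrenomedullin, was at least 1.78-fold lower. The 2 rises were FZD10, a WNT receptor (at least 1.70-fold), and GPRC5C (1.56-fold).

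Receptors of growth factors and cytokines were grouped with some of their ligands. Of 14 growth factor, cytokine and Eph genes 4 fell and 2 rose, with 1 rise without AI 1, AI 2, SCNT 2 or SCNT 3. Of the 4 falls 1, TNFRSF1A, had passed the filter on the AI arrays alone. TNFRSF1A, a receptor of tumour necrosis factor, read 5.80, 4.53 and 5.26 in AI and 3.44, 2.59 and 3.05 in SCNT, at least 2.30-fold lower, and EFNA1, a membrane-bound ligand of Eph receptors, read 7.13, 7.22 and 7.21 in AI and 6.02, 5.14 and 5.30 in SCNT, 3.25-fold lower. VEGFA, the growth factor of blood vessels, was 2.22-fold higher, at 5.46, 5.31 and 5.06 in AI and 6.18, 6.77 and 6.34 in SCNT.

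In a mixed family of KLF, SP, AP-1, ETS, immediate early and related transcription factors, 12 of 33 genes fell and 3 rose. The median was -0.30, with 1 rise without AI 1, SCNT 1 or SCNT 2. FOS, a subunit of the AP-1 factor induced within minutes of a stimulus, read 5.11, 5.56 and 4.64 in AI and 2.79, 3.39 and 2.72 in SCNT, at least 2.15-fold lower, having passed the filter on the AI arrays alone. ID1 and ID2, which block basic helix-loop-helix factors, fell 1.87-fold and 2.17-fold, and MXI1, an antagonist of MYC, at least 2.75-fold. ID1 read 6.53, 6.59 and 6.50 in AI and 5.28, 5.76 and 5.86 in SCNT. TFDP2, the partner of E2F factors in cell cycle control, went up from 4.28, 4.67 and 4.11 in AI to 6.17, 6.04 and 5.59 in SCNT, 2.99-fold higher. For none of these 5 genes did the groups overlap.

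Calcium-binding proteins and the cytoskeleton were divided. Of 35 annexin, S100 and related genes 11 fell and 3 rose, the falls being 7 without AI 3 or SCNT 2. Of the 11, 2 had passed the filter on the AI arrays alone. S100A2 read 9.61, 10.22 and 10.41 in AI and 7.60, 7.44 and 6.66 in SCNT, 7.19-fold lower (95% interval 4.79 to 10.8), S100A11 10.05, 10.20 and 8.93 in AI and 8.27, 7.71 and 7.94 in SCNT, 3.37-fold lower, and ANXA4 fell 2.38-fold, whereas ANXA6, at 5.99, 5.88 and 5.91 in AI and 7.27, 7.35 and 6.77 in SCNT, rose 2.31-fold. Of 65 actin and myosin genes 13 fell and 7 rose, or 8 and 3 without SCNT 2, and 2 of the 13 had passed on the AI arrays alone. Genes of actin bundling and branching were among the falls, with FSCN1 at least 1.72-fold, FLNC 2.80-fold and ARPC1B 2.01-fold lower. Genes of the tropomyosin and contractile side were among the rises: TPM1 read 6.33, 5.99 and 6.82 in AI and 7.38, 7.91 and 7.84 in SCNT, 2.51-fold higher, and MYLK, the myosin light chain kinase, rose 2.02-fold.

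Of 19 tetraspanins and their partners 6 fell and 2 rose, with a median of -0.34 and 1 rise without AI 3, SCNT 1 or SCNT 2. Of the 6 falls, 2 had passed the filter on the AI arrays alone. TM4SF1 read 6.85, 7.95 and 6.15 in AI and 4.36, 5.47 and 5.14 in SCNT, 3.98-fold lower, and CMTM3 fell at least 1.65-fold, while TSPAN2 was at least 2.60-fold higher, at 3.87, 4.13 and 3.63 in AI and 4.87, 5.76 and 5.63 in SCNT. Of 22 protease and protease inhibitor genes 7 fell and 4 rose. TIMP2, an inhibitor of matrix metalloproteinases, read 8.60, 8.35 and 7.26 in AI and 5.37, 5.60 and 6.30 in SCNT, 4.97-fold lower, and SERPINE2, an inhibitor of thrombin and plasminogen activators, read 7.13, 7.02 and 7.77 in AI and 5.78, 5.60 and 5.05 in SCNT, 3.56-fold lower. PRSS23, a serine protease, read 5.28, 4.95 and 5.05 in AI and 7.12, 6.97 and 6.44 in SCNT, 3.36-fold higher, and SERPING1, which inhibits the first complement protease, rose 2.34-fold.

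Lysosomal genes changed in both directions. Of 36 genes 9 fell and 5 rose. The falls included enzymes and carriers of the lysosome's interior: CTSB read 10.07, 9.71 and 10.43 in AI and 8.51, 7.93 and 8.04 in SCNT, 3.75-fold lower, and NPC2, which hands on cholesterol, read 10.24, 10.60 and 10.78 in AI and 8.75, 8.44 and 8.38 in SCNT, 4.04-fold lower (95% interval 3.08 to 5.29). The protease gene CTSL fell 2.76-fold and the mannosidase gene MAN2B1 at least 1.56-fold. Among the rises were the genes that tag and deliver such enzymes. GNPTAB, which starts the mannose 6-phosphate tag, read 6.19, 6.62 and 6.13 in AI and 7.68, 7.71 and 7.69 in SCNT, 2.60-fold higher, and IGF2R, the receptor for that tag and an imprinted gene, read 6.05, 5.34 and 5.71 in AI and 6.73, 6.88 and 6.82 in SCNT, 2.16-fold higher. In neither did the groups overlap.

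The vacuolar proton pump, which acidifies lysosomes, had 5 falls and 1 rise among 19 genes and a median of -0.32, with 2 or 3 falls without AI 1, AI 2, SCNT 2 or SCNT 3. TCIRG1 and ATP6V0A4 code for alternative forms of the same membrane subunit. TCIRG1 read 7.22, 6.75 and 7.29 in AI and 6.0, 6.18 and 5.76 in SCNT, 2.16-fold lower. ATP6V0A4 read 5.27, 5.59 and 4.86 in AI and 6.04, 6.73 and 6.77 in SCNT, 2.42-fold higher, so that the forms moved in opposite directions, each without overlap.

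Of 37 glycosyltransferase genes 10 were lower and 4 higher, the rises being 7 without AI 2 and 2 without SCNT 2. Of the falls 2 had passed the filter on the AI arrays alone, and of the rises 1 on the SCNT arrays alone. B4GALT1, which adds galactose to N-glycans, read 9.95, 9.94 and 10.20 in AI and 8.35, 8.41 and 8.29 in SCNT, 3.21-fold lower, and C1GALT1, which makes the core of mucin-type glycans, read 6.68, 6.38 and 6.86 in AI and 5.26, 5.69 and 5.87 in SCNT, 2.05-fold lower. In amino acid and polyamine metabolism 7 of 30 genes fell and 6 rose, or 4 falls without AI 1. ODC1, the first enzyme of polyamine synthesis, read 11.92, 11.82 and 11.96 in AI and 10.92, 10.60 and 10.21 in SCNT, 2.51-fold lower, and GOT1, an aspartate transaminase, fell 2.02-fold. OAT and ALDH4A1, which lead ornithine and proline towards glutamate, rose 1.77-fold and at least 1.25-fold.

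Ion pumps and channels changed in both directions, with 10 of 27 higher and 6 lower, or 6 higher without SCNT 2 or SCNT 3. Separate genes for related proteins went opposite ways. ATP1B3, a beta subunit of the sodium pump, read 8.61, 8.66 and 8.29 in AI and 10.52, 10.88 and 10.88 in SCNT, 4.72-fold higher (95% interval 3.45 to 6.47, limma adjusted p = 5.87e-05), while ATP1B1, another beta subunit, fell 3.56-fold. CA4, a carbonic anhydrase of the cell surface, read 2.63, 2.63 and 2.52 in AI and 4.30, 4.70 and 5.20 in SCNT, at least 1.66-fold higher. CA2, a cytosolic carbonic anhydrase, read 9.60, 9.56 and 9.08 in AI and 7.48, 7.12 and 7.51 in SCNT, 4.12-fold lower.

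In the same family, SLC9A3, a sodium and proton exchanger, read 5.42, 5.51 and 5.14 in AI and 6.93, 7.88 and 7.75 in SCNT, 4.49-fold higher. NHERF1, its scaffold in other epithelia, rose 6.97-fold. SCNN1G, a subunit of the epithelial sodium channel, read 5.43, 5.85 and 4.20 in AI and 3.13, 2.49 and 2.99 in SCNT, at least 2.24-fold lower, with AI arrays spread over more than 1 log2 unit but still above the SCNT arrays. The families were broad, and in several of them unlike members changed in opposite directions by at least 1 log2 unit each as measured. Such pairs were NHERF1, a scaffold, and SCNN1G, a channel subunit, in the family of ion pumps, channels and their regulators. Others were TSPAN2 and TSPAN1 (tetraspanins), PRSS23 and SPINK4 (proteases and inhibitors), and NUCB2 and S100G (calcium-binding proteins). TPM1 and ADD3 (actin regulators) and TFDP2 and FOS (transcription factors) also differed in direction. So did HSD17B1 and GSTO1, from a mixed family of dehydrogenases and other enzymes.

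Phospholipid and peroxisome genes held some of the larger rises. Of 33 phospholipid and sphingolipid genes 7 rose and 2 fell. PLA2G12A, a secreted phospholipase, read 3.96, 4.24 and 4.20 in AI and 5.71, 6.10 and 5.43 in SCNT, 3.06-fold higher, and LPCAT3 and AGPAT3, which attach fatty acids to lysophospholipids, rose 2.64-fold and 2.36-fold. Of 16 peroxisome genes 4 rose and 0 fell (limma; 4 and 2 at an unadjusted p under 0.05), and the median of the family was -0.07. ACOT8, a thioesterase of peroxisomes, read 5.49, 5.16 and 5.27 in AI and 6.89, 7.14 and 7.26 in SCNT, 3.45-fold higher, and CAT, catalase, rose 2.15-fold, ABCD3, which imports fatty acids, 1.95-fold and PEX7 1.50-fold.

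Several families stayed near or below the background in both directions. Of 86 SNARE, exocyst and endosomal genes 6 rose and 9 fell, with 3 to 5 falls without AI 3 or any SCNT array. Of 50 COPI, COPII and Golgi genes 5 rose and 1 fell, with 2 or 3 rises without AI 3, SCNT 1 or SCNT 3, and of 48 protein phosphatase genes 6 rose and 3 fell, with 3 rises without SCNT 3. Of 26 PI3K, AKT, mTOR and AMPK genes 3 rose and 1 fell, of 15 MAP kinase genes 1 rose and 0 fell (limma; 1 and 0 at an unadjusted p under 0.05), and of 57 chromatin remodellers 4 rose and 1 fell, with 2 rises without SCNT 1 and 0 without SCNT 2 (limma; 13 and 3 at an unadjusted p under 0.05 with all arrays). Of 112 zinc finger genes measured, 15 were above the level filter and 1, ZNF330, rose (1.65-fold). Interferon-stimulated genes could hardly be judged, since 1 of 34 was included, TRIM25, at 6.44, 6.34 and 5.97 in AI and 4.98, 5.54 and 4.62 in SCNT, 2.31-fold lower.

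Among the larger rises, those ranked 11th to 30th by size added genes outside these families. SLC10A1, a bile acid transporter, rose on all 4 of its probe sets, by 1.22 to 1.98 log2 units, and the brightest read 7.64, 7.56 and 7.43 in AI and 9.04, 9.66 and 9.31 in SCNT, 3.46-fold higher. FILIP1L, a regulator of cell migration, read 4.18, 4.25 and 4.10 in AI and 5.74, 6.34 and 5.75 in SCNT, 3.41-fold higher, and the cation channel gene MCOLN2 read 6.40, 7.22 and 6.43 in AI and 7.87, 8.42 and 8.66 in SCNT, 3.10-fold higher. For each, the lowest SCNT array was above the highest AI array. TXNRD1, which reduces thioredoxin, rose 3.11-fold, TMEM144 3.45-fold and the phospholipid scramblase gene PLSCR2 at least 2.32-fold. The imprinted gene CDKN1C, an inhibitor of cyclin-dependent kinases, rose 3.20-fold and ASCL2, a trophoblast transcription factor, 3.03-fold.

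Falls ranked 11th to 30th, by measured differences that include levels below log2 4, often ended below that level, so that their order is not exact. PLBD1, a phospholipase-like lysosomal protein, read 9.50, 9.17 and 8.80 in AI and 5.85, 6.57 and 6.03 in SCNT, 8.05-fold lower (95% interval 5.48 to 11.8). CKMT1A, the mitochondrial creatine kinase, read 8.63, 8.43 and 8.90 in AI and 7.05, 5.36 and 4.92 in SCNT, 7.33-fold lower (95% interval 3.54 to 15.1), with SCNT 1 well above the other SCNT arrays. LRATD1 read 6.12, 5.29 and 6.33 in AI and 2.59, 2.46 and 2.42 in SCNT, at least 3.76-fold lower, and RNF128, a ubiquitin ligase, read 5.92, 5.61 and 5.60 in AI and 2.89, 2.85 and 2.99 in SCNT, at least 3.27-fold lower. On both genes all SCNT arrays were below log2 4 and all AI arrays above it. The secreted protein genes SRPX and FIBIN were at least 5.23-fold and at least 2.57-fold lower, the sulfotransferase gene SULT1A1 at least 3.53-fold, and CLDN1, a tight junction protein, at least 2.74-fold.

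**Figure D4:**
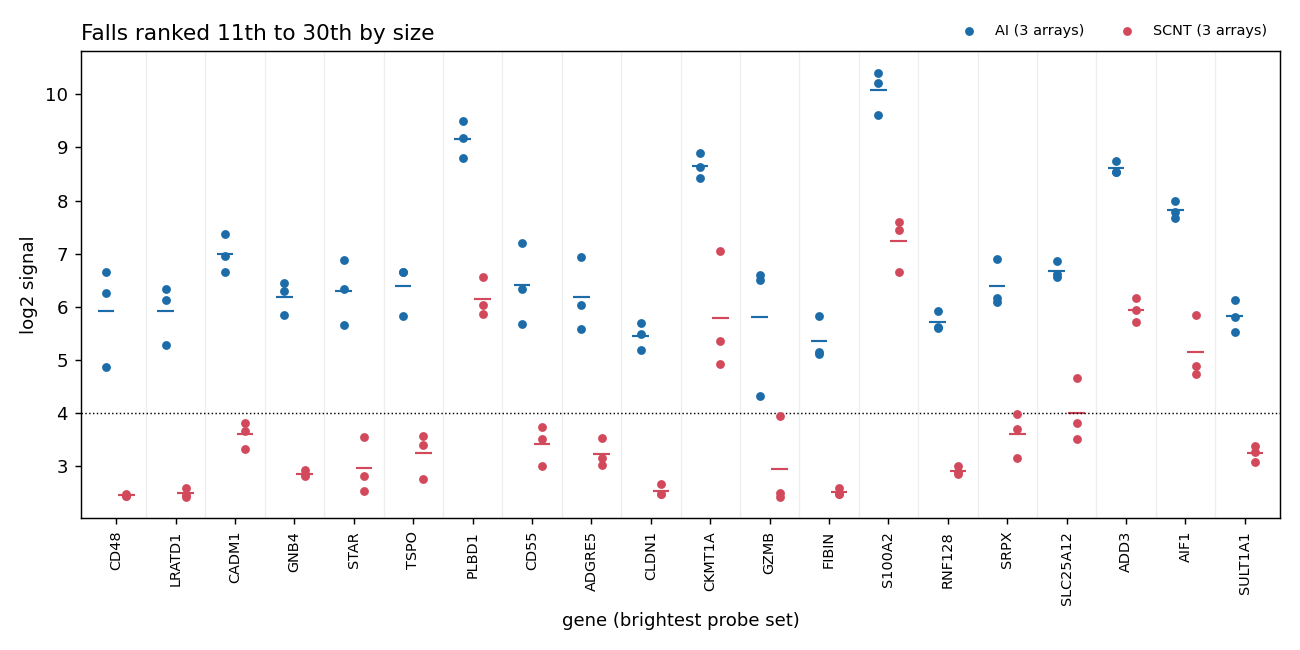
Log2 signal (vertical axis) of the 20 falls ranked 11th to 30th by size, 1 column per gene, with the 3 AI arrays in blue, the 3 SCNT arrays in red and a dash at each group mean. The dotted line marks log2 4, below which levels are bounds. The blue points lie above the red ones for every gene, and 15 of the 20 SCNT means are below the line.

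Genes read by several probe sets gave a check within the arrays. Of 564 such genes 222 had any called probe set, and 113 of these had at least 2. Where at least 2 were called, they went in 1 direction for 108 genes and in both for 5. For the rest of the 222 no other probe set was called. Of 61 genes with 3 or more probe sets, 8 had every one called higher: ACSL3, B2M, SLC10A1, AGPAT3, SFXN1, NCOA1, ATP2A2 and RAP1A. SFXN1, which carries serine into mitochondria, rose by 0.85 to 1.11 log2 units on its 3 probe sets, and NCOA1, a coactivator of nuclear receptors, by 0.86 to 1.02. The brightest probe set of B2M lost its call without SCNT 2, and that of ATP2A2 without AI 1, AI 2, SCNT 2 or SCNT 3. DYNLT3, a dynein light chain, fell on all 3 probe sets by 0.70 to 1.40 log2 units, and AP3M1, of the AP-3 coat, by 0.55 to 0.79.

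A small set of genes set SCNT conceptuses apart from IVP as well as from AI ones. Against IVP, 16 of the 6703 probe sets were higher and 23 lower in SCNT (0.582% in all), and the comparisons share the SCNT arrays. Called in the same direction against both were 26 probe sets, 12 higher and 14 lower, and 7 of the 12 had no symbol. The 12 genes described are those whose brightest probe set was among them and kept its call against AI in every omission. With PLET1, 13 genes are named here for a call against IVP. That call held in each of 6 omissions of 1 AI or SCNT array for 3 of them, ADD3, ATP1B1 and PLET1. These were also the 3 that kept it without SCNT 2. Of the 13, 6 kept it without SCNT 1, 7 without SCNT 3 and 8 without AI 1. No IVP array was left out, and omitting an AI array bears on the comparison with IVP only through the estimate of spread. Falls in this set included genes of secreted plasma proteins that hypoblast and liver make. FETUB, a relative of fetuin-A, read 11.29, 11.16 and 10.21 in AI, 10.68, 10.85 and 11.01 in IVP and 9.62, 8.96 and 9.26 in SCNT, and PROS1, the anticoagulant protein S, read 7.24, 7.24 and 6.46 in AI, 6.65, 6.92 and 7.24 in IVP and 5.26, 5.68 and 5.76 in SCNT. AI and IVP arrays overlapped for both genes and every SCNT array was below them. FETUB was 3.05-fold and PROS1 2.67-fold lower than in AI (limma adjusted p against IVP = 0.0366 and 0.0384).

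APOH, an apolipoprotein, read 6.92, 6.66 and 5.63 in AI, 6.33, 6.65 and 6.69 in IVP and 4.26, 3.69 and 5.07 in SCNT, 4.18-fold lower than in AI. AHSG, fetuin-A, fell on 4 of its 5 probe sets against AI, and these 4 were also called lower against IVP. AHSG is itself 1 of the 15 hypoblast markers, so its fall is part of the lower hypoblast marker mean given above. Of the 6 included markers of that list 3 fell and 3 were not called. GATA6, 1 of those not called, read 7.85, 7.66 and 7.97 in AI and 7.74, 7.51 and 7.79 in SCNT. Whether these genes fell with the amount of hypoblast was not tested. NDRG1, a gene induced by hypoxia and differentiation, read 9.89, 9.95 and 9.04 in AI, 9.17, 9.16 and 9.21 in IVP and 7.36, 7.05 and 8.08 in SCNT, 4.37-fold lower than in AI. ALAD, of heme synthesis, read 8.52, 8.43 and 8.24 in AI, 8.23, 8.60 and 8.26 in IVP and 7.33, 6.93 and 7.22 in SCNT, 2.36-fold lower. ADD3, ATP1B1 and RSRP1 completed the falls, at 6.34-fold, 3.56-fold and 1.72-fold lower than in AI.

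Of the genes that rose against both, MARK1, a kinase that acts on microtubule-associated proteins, read 3.30, 3.01 and 3.32 in AI, 3.97, 3.48 and 3.21 in IVP and 4.87, 4.34 and 4.81 in SCNT, at least 1.60-fold higher than in AI. TXNDC9, a cofactor of the TRiC chaperonin, read 5.31, 5.80 and 5.35 in AI, 5.64, 5.68 and 5.42 in IVP and 6.32, 6.50 and 6.62 in SCNT, 1.99-fold higher, and PIGW, of glycosylphosphatidylinositol anchor synthesis, read 6.24, 6.74 and 6.55 in AI, 6.62, 6.40 and 6.36 in IVP and 7.33, 7.52 and 7.33 in SCNT, 1.84-fold higher. In each, all SCNT arrays lay above all AI and IVP arrays, but the call against IVP ended in 3 to 5 of the 6 omissions. PLET1, a trophoblast surface protein named after its values were seen, was between the groups: it read 7.73, 6.84 and 7.41 in AI, 6.65, 5.26 and 5.29 in SCNT and 2.72, 3.43 and 2.79 in IVP, 3.02-fold lower than in AI but higher than in IVP (limma adjusted p = 0.0105).

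**Figure D5:**
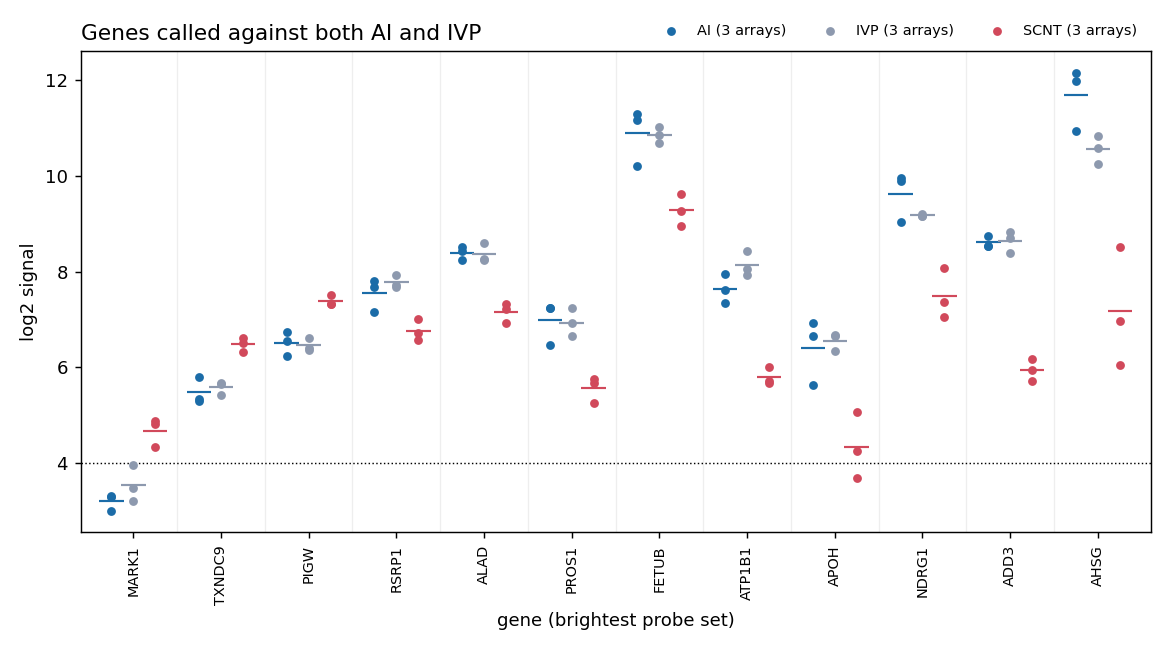
Log2 signal (vertical axis) of 12 genes called in the same direction against AI and against IVP at their brightest probe set, with calls against AI that held in every omission, 1 column per gene, with the 3 AI arrays in blue, the 3 IVP arrays in grey, the 3 SCNT arrays in red and a dash at each group mean. The dotted line marks log2 4. For MARK1, TXNDC9 and PIGW the red points lie above the others, and for the 9 remaining genes below them.

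Part of the difference lay in probe sets to which no gene symbol is attached. Of these 1783, 222 rose (12.5%) and 248 fell (13.9%), so that falls outnumbered rises, while among the 4897 with 1 symbol 17.6% rose and 11% fell. The largest rise of all 6703 was that of a probe set without a symbol, from a mean of 4.41 in AI to 9.37 in SCNT, or 4.97 log2 units (limma adjusted p = 5.87e-05). Another without a symbol averaged 7.25 in AI and lay below log2 4 on every SCNT array, having passed the filter on the AI arrays alone.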

How the data were processed

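Expression was measured on 12 Affymetrix bovine genome arrays, 3 each of AI, IVP and SCNT conceptuses and of donor fibroblasts. The authors deposited log2 signals, and GCRMA and limma are named per the submitters' processing notes; whether all arrays were normalized together is not given in the sources used here. Of 24128 probe sets, 112 controls were removed and those above log2 4 on at least 3 of the 6 AI and SCNT arrays were kept. One model with a coefficient per conceptus group was fitted to 9 arrays (limma 3.58.1, R 4.3.3, lmFit and eBayes, tested on simulated data), and p-values were adjusted over 6703 probe sets (Benjamini-Hochberg, threshold 0.05). A gene was represented by its brightest probe set; arrays below 4 were set to 4 for folds where a group mean lay below 4.

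Genes were named by rank 11 to 30 of rises and of falls, as the 20 small rises with the smallest p, by family, or as also called against IVP or on every probe set; named genes had non-overlapping arrays and calls against AI that held under each omission and scaling, unless stated. Some further genes, such as FBL, PHGDH, IPO9, NME3, DICER1, F2R and DKC1, were named after their values were seen. The members, families and marker lists were chosen with earlier results of these data known. Alternatives covered the filter, floor, scaling, arrays fitted, replicate block, threshold and each AI or SCNT array left out. Fibroblast arrays were used only in one alternative. Replicate numbers did not pair the samples: deviations of same-numbered AI and SCNT arrays correlated at 0.11, -0.03 and -0.10. One of the families is not reported here.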

Additional observations from a re-analysis of the deposited data

How the results depend on the processing

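The 1879 calls between SCNT and AI became 984 with no level filter (523 higher, 461 lower, 410 small rises, 242 small falls and 113 rises of at least 2-fold) and 932 at an adjusted p under 0.01 (483 higher, 449 lower, 335 small rises and 181 small falls). The 39 calls against IVP became 7 with no filter, 5 at an adjusted p under 0.01, 131 with all 12 arrays and 22 with the replicate number as a block. With that block the calls between SCNT and AI were 1721. With each AI or SCNT array left out in turn, calls between SCNT and AI ranged from 1195 to 1680. Higher calls ranged from 630 to 911 and lower calls from 565 to 769. Small rises ranged from 476 to 727 and small falls from 279 to 430. Rises of at least 2-fold ranged from 154 to 209 and falls of at least 2-fold from 286 to 339. Calls against IVP ranged from 8 to 65, with no IVP array left out. The cause of these shifts was not tested. When a gene was taken as the mean of its probe sets, 3 family medians changed sign: trophoblast markers to -0.072, cullins to 0.018 and homeobox genes to -0.0012. Of 268 genes picked by the naming rule, with PLET1 counted among them, 77 lost their call with no filter and 19 at an adjusted p under 0.01. With 3 arrays a group, differences of 0.25 to 0.5 log2 units passed the test in a minority of probe sets, and levels below log2 4 give only bounds.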
